A study of Homo sapiens with 8 samples.

Results

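The genes described here are IL6ST and 9 partners of the gp130-JAK-STAT3 pathway, which are the receptor genes IL6R, OSMR and LIFR, the kinase genes JAK1, JAK2 and TYK2, the transcription factor gene STAT3, and the inhibitor genes SOCS3 and PIAS3. The list was chosen by the IL6ST counts, which were lower after knockdown in SW480 cells and hardly lower in DLD-1 cells. The IL6ST values, those of the shControl libraries included, are therefore given as a description with no test. Of the 10 listed genes, LIFR was not analysed here, and OSMR did not pass the filter on low counts. This left IL6ST and 7 others among the 13619 genes tested, of 17309 with counts. RNA was sequenced from 2 human colorectal cancer cell lines, SW480 and DLD-1, labelled wild type and infected with shControl or shNAT10 virus. A short hairpin RNA (shRNA) virus makes cells express a hairpin that lowers a target mRNA, here that of NAT10, an RNA acetyltransferase. The 4 groups, SW480 shControl, SW480 shNAT10, DLD-1 shControl and DLD-1 shNAT10, held 2 libraries each, labelled as biological replicates, 8 in all. All cells carried a virus and were grown in the same medium with serum, and no uninfected cells or added cytokine were part of the groups.

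IL6ST encodes gp130, the signalling subunit shared by the receptors for interleukin 6, interleukin 11, oncostatin M, leukaemia inhibitory factor and related cytokines. Ligand binding to a specific subunit such as IL6R, OSMR or LIFR brings gp130 chains together, and the JAK kinases bound to them phosphorylate the receptor and STAT3, which then enters the nucleus and switches on its targets. One of these targets is SOCS3, which binds gp130 and JAK proteins and damps the signal, while PIAS3 inhibits DNA binding by STAT3. In the colon epithelium the pathway is known for its part in regeneration after injury and in the growth of inflammation-associated tumours.

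The study designed 2 hairpins against NAT10, and the labels do not say which of them was sequenced, so the target sequences of both are shown because they are the treatment that the groups differ by. Each is the sense strand, 5′ to 3′, of the 19 bases between the overhang and the loop of the designed oligo, and in NAT10 (GENCODE release 29, GRCh38, + strand) each lies in coding sequence across an exon junction, shNAT10-1 in exons 8 and 9 at chr11:34118503-34122476 and shNAT10-2 in exons 26 and 27 at chr11:34141805-34142280.
shNAT10-1 target: ggccaaagctgtcttgaaa
shNAT10-2 target: cagtgacgacctagatgaa
The guide strand is the reverse complement of the target, and its bases 2 to 8, the seed, are in capitals in the next lines.
shNAT10-1 guide: tTTCAAGAcagctttggcc
shNAT10-2 guide: tTCATCTAggtcgtcactg
The longest run of consecutive target bases in the mRNA of an analysed pathway gene was 10 bases for shNAT10-1 and 9 bases for shNAT10-2, against all 19 in NAT10. The 10-base run was in IL6ST and the 9-base run in PIAS3.

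IL6ST is on the - strand of chromosome 5 (GENCODE release 29, GRCh38, chr5:55935095-55994993). Its 3′ UTR, 5987 bases in the transcript used, held 2 sites that match the seed of each hairpin. They are shown here as the mRNA sense strand, with the 7 bases complementary to the seed in capitals, because IL6ST was the only analysed member with a seed match for both hairpins. All 4 lie in exon 17.
shNAT10-1 match at chr5:55937147-55937175: ttttttttattTCTTGAAcacaggctttg
shNAT10-1 match at chr5:55937108-55937136: gttcttttatcTCTTGAAcacaagctttg
shNAT10-2 match at chr5:55940072-55940100: agagtactgggTAGATGAacactttatac
shNAT10-2 match at chr5:55939259-55939287: cgaattcaaagTAGATGAggaaaatcagg
PIAS3 held 1 match to the shNAT10-1 seed, and the 3′ UTRs of the other analysed members held none. At least 1 match to a single hairpin is common, since 17.1% of 13314 tested genes with a 3′ UTR held one for shNAT10-1 and 8.53% held one for shNAT10-2. The share with 2 sites, with matches to both hairpins, or among 3′ UTRs of this length was not computed. The part of these sites in the IL6ST level was not tested.

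The libraries held 15147805 to 17271336 estimated counts each, and replicates differed by more than counting noise in every group. The excess was uneven, with a chi-square per degree of freedom of 9.78 for the SW480 shNAT10 pair. For the other pairs it lay between 3.31 and 4.59. Levels are given as CPM, counts per 1000000 on effective library sizes, and tests are edgeR quasi-likelihood tests with Benjamini-Hochberg adjustment over the 13619 genes. The fit takes 1 spread per gene for all 4 groups, so its errors and p-values do not allow for the wider spread in SW480 shNAT10. All 9 colon epithelial markers passed the filter, and their summed level was 3001 to 3712 CPM in the SW480 libraries and 7072 to 7620 CPM in the DLD-1 libraries. Fibroblast markers summed to 1.51 to 4.8 CPM, leukocyte markers to 0.656 to 2.11 CPM and endothelial markers to 0.587 to 1.64 CPM, with 5 of these 14 markers tested. In bulk RNA, fewer cells with a transcript and less RNA per cell cannot be told apart.

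NAT10, the targeted gene, was at 122 and 122 CPM in the SW480 shControl libraries and at 23.6 and 27.9 CPM in the shNAT10 libraries. In DLD-1 it was at 121 and 121 CPM against 59 and 54.4 CPM. The fall was 79% in SW480 (log2 fold change -2.25, SE 0.09, edgeR adjusted p = 3.74e-09) and 53% in DLD-1 (log2 fold change -1.09, SE 0.08, edgeR adjusted p = 2.73e-05). The knockdown was deeper in SW480, with a difference of -1.16 on the log2 scale (SE 0.12, edgeR adjusted p = 0.0015).

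**Figure D1:**
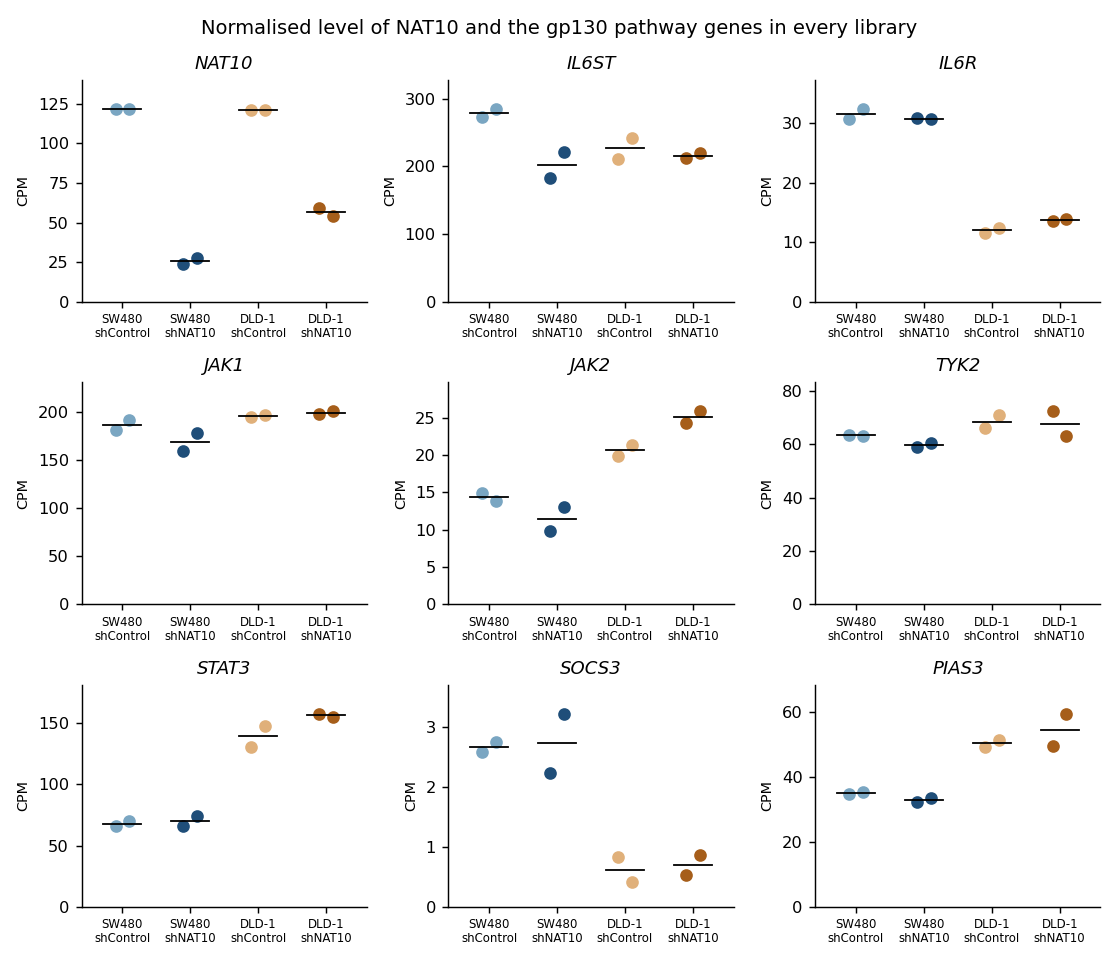
Normalised level (CPM, vertical axis from 0) of NAT10 and 8 pathway genes in each of the 8 libraries, with points for libraries and lines for group means. NAT10 was low in all 4 shNAT10 libraries, IL6ST was lower in both SW480 shNAT10 libraries (182 and 221 CPM) than in both SW480 controls (273 and 285 CPM), with the higher of them within the range of the DLD-1 libraries, and STAT3, IL6R and SOCS3 differed mainly by cell line.

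Of the receptor genes, IL6ST was at 273 and 285 CPM in the SW480 shControl libraries and at 182 and 221 CPM in the SW480 shNAT10 libraries. Both knockdown libraries lay below both controls. The first was 34.7% and the second 20.6% below the control mean, and the controls differed from each other by 4.59%. In DLD-1 the IL6ST level was 211 and 242 CPM in the shControl libraries and 212 and 219 CPM in the shNAT10 libraries. Here the knockdown libraries lay between the controls, which differed by 14.4%. The fitted log2 fold change was -0.47 (SE 0.09) in SW480 and -0.07 (SE 0.09) in DLD-1, a difference of -0.40 (SE 0.12). These are the values by which the list was chosen, so they carry no test.

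The IL6ST transcript is long and poor in G and C. At 9057 bases it was longer than 95.7% of the tested genes, and at 36.6% GC only 2.9% of tested genes were lower. Long transcripts as a class were lower in the SW480 shNAT10 libraries. The median log2 fold change of all genes tested ran from 0.13 in the shortest 10% of them, whose median length was 952 bases, to -0.15 in the longest 10%, whose median length was 8615 bases. By GC content it ran from -0.12 in the lowest 10% to 0.13 in the highest 10%. The trend was mainly in replicate 1 of SW480 shNAT10, where the longest 10% had a median log2 ratio to the controls of -0.22 against -0.06 in replicate 2. Replicate 1 was also the library with the lower IL6ST level. In DLD-1 the longest 10% had a median log2 fold change of 0.02. By GC content the DLD-1 medians ran from -0.04 to 0.05, the same way as in SW480, and in replicate 1 of DLD-1 shNAT10 from -0.08 to 0.10. With length and GC content removed together from each library by a fitted surface, the IL6ST log2 fold change was -0.27 (SE 0.05) in SW480 and -0.04 (SE 0.05) in DLD-1. The value in SW480 was -0.33 without replicate 1 of SW480 shNAT10 and -0.61 without replicate 2.

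**Figure D2:**
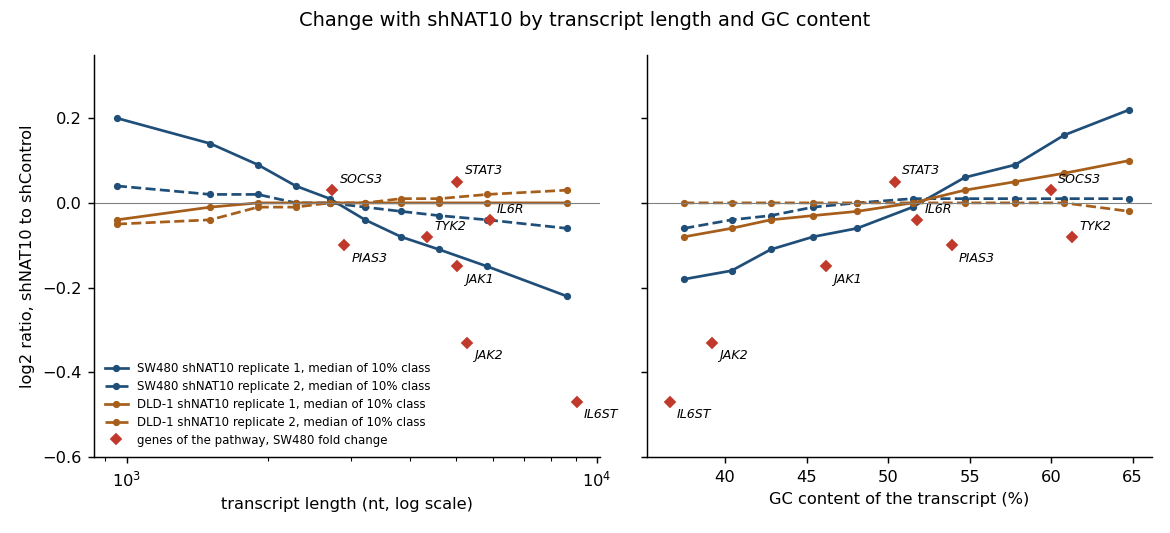
Lines show the median log2 ratio of each shNAT10 library to its controls in 10% classes of all tested genes by transcript length (left, log axis) and GC content (right), and diamonds show the SW480 log2 fold change of 8 pathway genes. The line of SW480 shNAT10 replicate 1 falls from 0.20 to -0.22 with length, and IL6ST at -0.47 lies below the lines of both SW480 libraries.

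The estimated counts divide IL6ST among 8 RefSeq transcripts, and 1 of them, NM_002184.4, held most of the reads. It was estimated at 3875 and 4268 counts in SW480 shControl, at 2660 and 3342 in SW480 shNAT10, at 2517 and 3438 in DLD-1 shControl, and at 3045 and 2761 in DLD-1 shNAT10. It was lower in both SW480 knockdown libraries than in both controls, as the gene total was. Its share of the gene was 85.5% ± 3.06 (SD, n = 2) in SW480 shControl and 87.2% ± 1.7 (SD, n = 2) in SW480 shNAT10, a difference within the spread of replicates. The remaining transcripts each took between 0 and 12.9% of the gene in a library, and several were at 0 in one replicate and above 0 in the other, so that no change in their use could be read from single-end 50-base reads. An antisense gene of the GENCODE annotation overlaps IL6ST exons, and reads of both strands cannot be told apart where counting did not use strand, which is not stated in the sources used here.

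IL6R, the subunit that binds interleukin 6, did not pass the test in either cell line. It was at 30.7 and 32.4 CPM in SW480 shControl and at 30.8 and 30.7 CPM in SW480 shNAT10. The SW480 groups overlapped, with a log2 fold change of -0.04 (SE 0.09, edgeR adjusted p = 0.85). In DLD-1 it was at 11.6 and 12.3 CPM against 13.5 and 13.9 CPM with shNAT10. There the knockdown libraries lay above the controls, and the log2 fold change of 0.20 (SE 0.10) had an edgeR adjusted p of 0.879. On log2(FPKM + 1) its sign turned, at -0.04 (SE 0.10). That fit left out the IL6R transcript that had no value in SW480 shNAT10 replicate 2. Summed over all its transcripts, IL6R in DLD-1 was at 2.18 and 2.35 FPKM in shControl and at 2.53 and 2.56 FPKM in shNAT10. OSMR, the oncostatin M receptor subunit, had between 0 and 2.01 counts in a library. At this depth a count of 0 allows up to 0.174 to 0.198 CPM, and no difference in OSMR was detectable.

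JAK2, a kinase bound to cytokine receptors, lay on opposite sides of its controls in the 2 cell lines. In SW480 it was at 14.9 and 13.8 CPM in shControl and at 9.88 and 13 CPM in shNAT10. In DLD-1 it was at 19.9 and 21.4 CPM in shControl and at 24.3 and 25.9 CPM in shNAT10. Thus both SW480 knockdown libraries were below, and both DLD-1 knockdown libraries above, their controls. The log2 fold change was -0.33 in SW480 (SE 0.13, edgeR adjusted p = 0.196) and 0.28 in DLD-1 (SE 0.12, edgeR adjusted p = 0.816). The difference between the cell lines was -0.61 (SE 0.17) with an unadjusted edgeR p of 0.00357 and an adjusted p of 0.472. None of the 3 passed the adjusted threshold. The JAK2 transcript has 5285 bases and 39.2% GC, and only 10.6% of tested genes were lower in GC. Without replicate 2 of SW480 shNAT10 its log2 fold change was -0.54 (edgeR adjusted p = 0.0172), and without replicate 1 it was -0.14.

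JAK1, the kinase on which gp130 signalling chiefly depends, was at 181 and 192 CPM in SW480 shControl and at 159 and 178 CPM in SW480 shNAT10. The knockdown libraries lay below the controls by a log2 fold change of -0.15 (SE 0.07, edgeR adjusted p = 0.263). In DLD-1 the 4 libraries lay between 195 and 201 CPM, with the knockdown libraries the higher pair at a log2 fold change of 0.03 (SE 0.07, edgeR adjusted p = 1). TYK2, the third kinase of the set, was at 63.6 and 63.2 CPM against 59.2 and 60.7 CPM in SW480, a log2 fold change of -0.08 (SE 0.08, edgeR adjusted p = 0.625). Its DLD-1 libraries overlapped, at 66.1 and 71 CPM in shControl and 72.5 and 63 CPM in shNAT10. JAK1 shares exon positions with RAVER2 on the other strand, so some of its reads may belong to that gene.

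STAT3, the transcription factor downstream, was not called in SW480. It was at 65.6 and 69.9 CPM in shControl and at 66.1 and 73.8 CPM in shNAT10, and the groups overlapped (log2 fold change 0.05, SE 0.08, edgeR adjusted p = 0.804). In DLD-1 it was at 131 and 148 CPM in shControl and at 158 and 155 CPM in shNAT10. The DLD-1 knockdown libraries lay above the controls by 0.17 on the log2 scale (SE 0.08), which did not pass the test (edgeR adjusted p = 0.833). These values are mRNA levels, and the phosphorylation of STAT3 was not measured by them.

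SOCS3, the feedback inhibitor, had few reads, with 38 to 55 counts per library in SW480 and 7 to 14 in DLD-1. It was at 2.58 and 2.75 CPM in SW480 shControl and at 2.23 and 3.22 CPM in SW480 shNAT10, and at 0.822 and 0.414 CPM against 0.53 and 0.853 CPM in DLD-1. The groups overlapped in both cell lines. Its log2 fold changes were 0.03 (SE 0.26) and 0.14 (SE 0.48), and with errors of this size a change as large as that of IL6ST was not detectable. Without DLD-1 shControl replicate 2 the DLD-1 value was -0.26. PIAS3, the inhibitor of STAT3 DNA binding, was at 34.6 and 35.4 CPM against 32.1 and 33.3 CPM in SW480, where the knockdown pair was lower (log2 fold change -0.10, SE 0.09, edgeR adjusted p = 0.593). In DLD-1 it was at 49.2 and 51.3 CPM against 49.4 and 59.4 CPM, and the groups overlapped. PIAS3 shares exon positions with NUDT17 on the other strand.

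**Figure D3:**
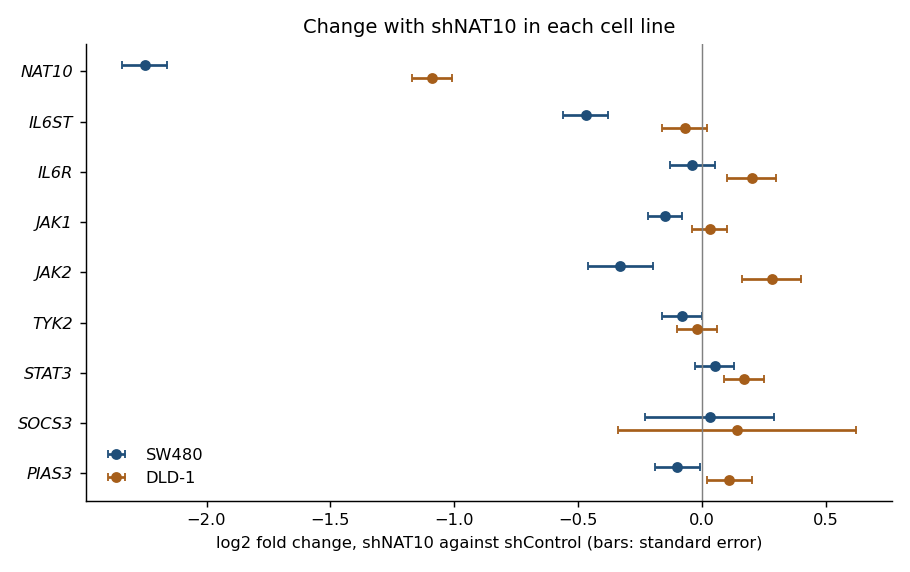
Log2 fold change of NAT10 and 8 pathway genes, shNAT10 against shControl (horizontal axis, bars are standard errors), in SW480 and DLD-1. NAT10 fell in both cell lines, IL6ST is shown as the gene that chose the list (-0.47 and -0.07), and JAK2 at -0.33 and 0.28 is the tested member whose 2 values lie farthest apart.

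Counted over the 7 tested members other than IL6ST, none was lower and none higher at an adjusted p under 0.05 with shNAT10 in SW480, where 0.903% of all genes tested were lower and 0.778% higher. Likewise none was called in DLD-1, against 0.0147% of all genes lower and 0% higher. These shares rest on 1 spread per gene for all 4 groups, and they changed when each cell line was fitted alone. Then 13 of 13152 genes were lower and 16 higher in SW480, and 13 of 12482 were lower and 25 higher in DLD-1. In the joint fit none of the 7 members had a change that differed between the cell lines, against 0.00734% of all genes, which was NAT10 alone. At an unadjusted edgeR p under 0.05 there was 1 of the 7 in SW480, against 19.3% of all genes, 2 in DLD-1, against 5.96%, and 1 in the difference, against 9.38%. With DESeq2 none was called in either cell line, although 3 had no adjusted p from it in SW480. The median log2 fold change of the 7 members was -0.08 in SW480 and 0.14 in DLD-1, beside -0.01 and 0.00 over all genes tested. Under the limits that the study used, a fold change above 1.2 or below 0.83 with an unadjusted p under 0.05, JAK2 was the 1 member lower in SW480, against 4.98% of all genes (4.1% higher). It was also the 1 member higher in DLD-1, against 1.34% of all genes (1.34% lower). The SW480 knockdown libraries of 4 of the 7 members, JAK1, JAK2, TYK2 and PIAS3, lay below both controls, against 26.2% of all genes, and none lay above, against 21.7%. In DLD-1 those of IL6R, JAK1, JAK2 and STAT3 lay above both controls, against 17.7% of all genes, and none lay below, against 18.2%. JAK1 and JAK2 lay below in SW480 and above in DLD-1, as did 3.14% of all genes.

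The levels of the pathway in the 2 cell lines without knockdown were compared between their shControl libraries, which are also the controls of the knockdown comparisons. Of the 7 tested members other than IL6ST, 2 were higher in SW480 (IL6R and SOCS3), against 38.1% of all genes, and 3 were lower (STAT3, JAK2 and PIAS3), against 35.6% of all genes. Most genes of the series differed between the cell lines, so these counts are near the background.

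STAT3 in SW480 was at 0.487 times its DLD-1 level (log2 fold change -1.04, SE 0.08, edgeR adjusted p = 2.59e-08), with 65.6 and 69.9 CPM against 131 and 148 CPM. IL6R was 2.64-fold higher in SW480 (log2 fold change 1.40, SE 0.10, edgeR adjusted p = 5.87e-09). SOCS3 was 4.27-fold higher in SW480 (log2 fold change 2.09, SE 0.36, edgeR adjusted p = 9.39e-05), on the few counts given above. The STAT3 and IL6R libraries of one cell line lay far from those of the other compared with the spread between replicates. The DLD-1 controls of SOCS3 themselves differed by 0.99 on the log2 scale, and its difference between cell lines was 1.69 without DLD-1 shControl replicate 2 and 2.66 without replicate 1. JAK2 and PIAS3 were lower in SW480 by -0.53 (SE 0.12, edgeR adjusted p = 0.00125) and -0.52 (SE 0.09, edgeR adjusted p = 0.000104) on the log2 scale. IL6ST, with no test since these values entered its choice, was at 273 and 285 CPM in SW480 and 211 and 242 CPM in DLD-1 (log2 fold change 0.30, SE 0.09), and at 0.21 without DLD-1 shControl replicate 1. JAK1 (-0.07, SE 0.07) and TYK2 (-0.11, SE 0.08) did not pass the test, with edgeR adjusted p = 0.371 and 0.221.

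**Figure D4:**
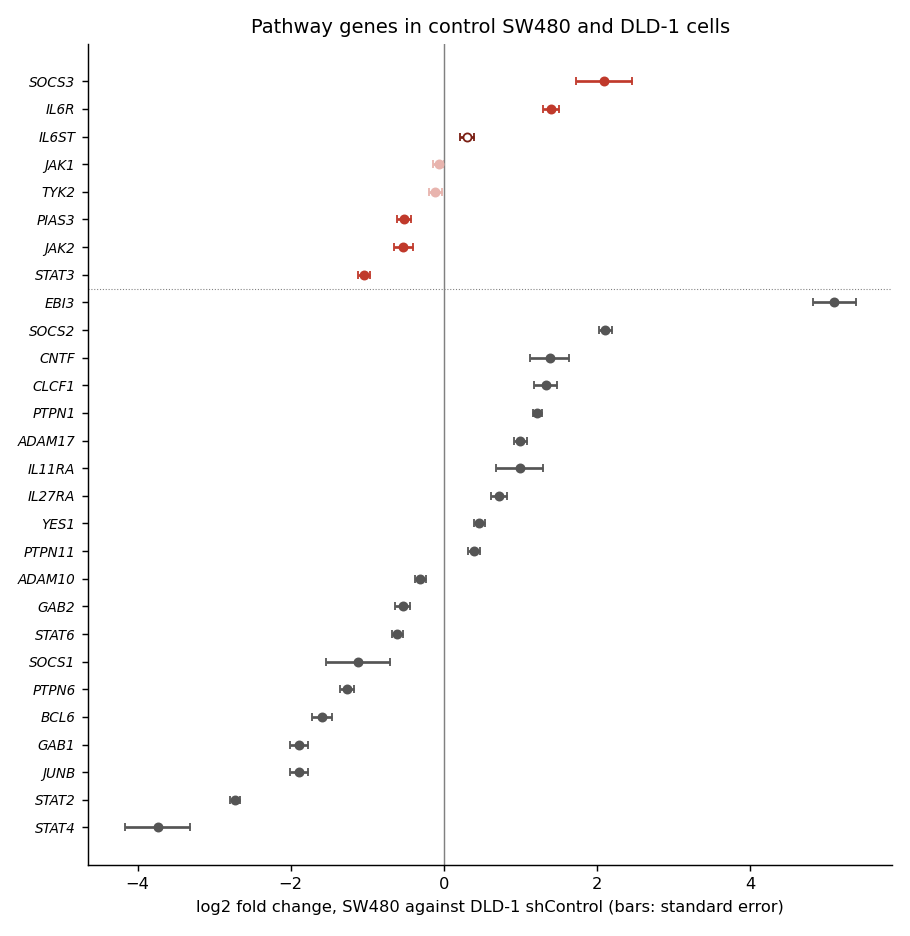
Log2 fold change between SW480 and DLD-1 shControl libraries (horizontal axis, bars are standard errors) for 8 members above the dotted line, pale where the adjusted p was not under 0.05 and an open circle for IL6ST, which was not tested, and for called genes reported here from the other pathway lists below it, leaving out those with 3 counts or fewer in a group. SOCS3 at 2.09 and STAT3 at -1.04 are the outermost members, and STAT4 and STAT2 lie lowest of the other genes.

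Levels of different genes were compared per length, as the deposited FPKM summed over a gene's transcripts. In SW480 shControl JAK1 was highest at 39.6 ± 1.9 FPKM, followed by IL6ST at 32.1 ± 1.27, TYK2 at 17 ± 0.12, STAT3 at 15 ± 0.955, PIAS3 at 13.4 ± 0.304, IL6R at 5.92 ± 0.304, JAK2 at 2.82 ± 0.163 and SOCS3 at 1.09 ± 0.0566 FPKM (SD, n = 2). No neighbours in this order overlapped between replicates. In DLD-1 shControl the order was JAK1 at 41.5 ± 0.445, STAT3 at 30.6 ± 3.25, IL6ST at 25.9 ± 2.58, TYK2 at 19.1 ± 0.205, PIAS3 at 19.1 ± 0.636, JAK2 at 3.88 ± 0.148, IL6R at 2.27 ± 0.12 and SOCS3 at 0.25 ± 0.113 FPKM (SD, n = 2). STAT3 thus stood above IL6ST in DLD-1 and below it in SW480, and JAK2 and IL6R also changed places. TYK2 and PIAS3 did not differ beyond their spread in DLD-1, and the lower STAT3 library (28.4 FPKM) and the higher IL6ST library (27.7 FPKM) there lay close together. In SW480 shNAT10 replicate 1 IL6ST was at 20.5 FPKM, and in replicate 2 its transcripts with a deposited value summed to 25 FPKM, with 1 of 8 transcripts not analysed here.

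The other genes of the pathway were taken as 7 lists of 72 genes, of which 60 were tested. With shNAT10 in SW480, 3 of the 60 were lower and none higher at an adjusted p under 0.05, where 0.903% of all genes were lower and 0.778% higher. In DLD-1 none was called, against 0.0147% of all genes lower. Their median log2 fold change was -0.05 in SW480 and 0.03 in DLD-1, beside -0.01 and 0.00 over all genes. Under the study's limits 7 were lower and 1 higher in SW480, against 4.98% and 4.1% of all genes, and 1 was lower in DLD-1, against 1.34%. With counts this small nothing is read from them about the lists. The 3 called genes were PTPN1, CCND1 and SAA2, and no list had more than 2 called.

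Among the ligands, 6 of 10 were tested and none was called with shNAT10 in either cell line, with list medians of -0.02 in SW480 and -0.18 in DLD-1. IL6 had 0 counts in each of the 4 SW480 libraries and 2 or 3 counts in each DLD-1 library. OSM had 1 count in all 8 libraries together. LIF was the ligand with the most reads, between 1110 and 1733 counts per library. In the shControl comparison 4 of the 6 tested ligands were higher and 1 lower in SW480, beside 38.1% and 35.6% of all genes. The lower one was LIF, with 1260 and 1319 counts in SW480 against 1733 and 1617 in DLD-1. EBI3, a subunit of interleukins 27 and 35, was at 8.91 and 9.78 CPM in SW480 against 0.294 and 0.237 CPM in DLD-1 (log2 fold change 5.10, SE 0.28, edgeR adjusted p = 4.49e-10). CLCF1, a gp130 ligand, was higher in SW480 by 1.33 (SE 0.15) and CNTF, ciliary neurotrophic factor, by 1.38 (SE 0.26) on the log2 scale. The receptor genes IL11RA (0.99, SE 0.31) and IL27RA (0.72, SE 0.10) were both higher in SW480 too, and neither was called with shNAT10. CNTFR and IL31RA did not pass the filter.

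No other STAT gene was called with shNAT10 in SW480 or DLD-1, and JAK3 was not called either, with list medians of -0.01 in SW480 and 0.06 in DLD-1. STAT2, a component of the interferon-activated transcription factor, was at 28.1 and 30 CPM in SW480 shControl and at 22.9 and 24.1 CPM in shNAT10. Its log2 fold change of -0.30 (SE 0.08) passed the study's limits but had an edgeR adjusted p of 0.0736. Between the cell lines STAT2 was at 28.1 and 30 CPM in SW480 against 193 and 192 CPM in DLD-1 (log2 fold change -2.73, SE 0.07, edgeR adjusted p = 1.63e-13). STAT6, which transmits interleukin 4 signals, was lower in SW480 by -0.61 (SE 0.07). STAT4 had 2 and 4 counts in SW480 and 44 and 39 in DLD-1. Of the 7 genes of this list, 4 were lower and 1 higher in SW480 control cells, beside 35.6% and 38.1% of all genes.

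Of the 13 other inhibitors and phosphatases, all were tested and 1 was lower with shNAT10 in SW480. This was PTPN1, a phosphatase that removes phosphate from JAK2 and TYK2, at 251 and 249 CPM in shControl and 189 and 194 CPM in shNAT10. Both knockdown libraries lay well below both controls (log2 fold change -0.39, SE 0.06, edgeR adjusted p = 0.00721). In DLD-1 SOCS2, an inhibitor of growth hormone signalling, passed only the study's limits, at 34.9 and 31.2 CPM against 24.6 and 27.8 CPM (log2 fold change -0.34, SE 0.09, edgeR adjusted p = 0.449). The list medians were 0.03 in SW480 and 0.04 in DLD-1. Between control cells SOCS2 (2.11, SE 0.08) and PTPN1 (1.22, SE 0.06) were higher in SW480 on the log2 scale. PTPN6, the phosphatase SHP-1, was lower in SW480 (-1.27, SE 0.09), and so was SOCS1 (-1.12, SE 0.42) at 0.645 and 0.351 CPM against 0.998 and 1.18 CPM.

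In the branch from gp130 to MAPK, PI3K and SRC-family kinases, 7 of 8 genes were tested and none was called with shNAT10, with list medians of -0.11 in SW480 and 0.02 in DLD-1. GAB2, a docking protein, was at 21 and 24.2 CPM in SW480 shControl and at 17.9 and 17.5 CPM in shNAT10 (log2 fold change -0.35, SE 0.10, edgeR adjusted p = 0.0938). In the control cells 3 genes were lower and 3 higher in SW480, beside 35.6% and 38.1% of all genes. GAB1, another docking protein, was the lowest (-1.89, SE 0.12) and GAB2 was also lower (-0.54, SE 0.10), while YES1, a SRC-family kinase (0.46, SE 0.07), and PTPN11, the phosphatase SHP-2 (0.39, SE 0.08), were higher. The sheddases ADAM10 and ADAM17, which release receptor ectodomains, were not called with shNAT10. ADAM17 was higher in SW480 control cells, at 123 and 124 CPM against 60.4 and 62.6 CPM in DLD-1, and ADAM10 was lower (log2 fold change -0.31, SE 0.07).

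Of 28 known STAT3 targets, 23 were tested, and 2 were lower and none higher with shNAT10 in SW480 (0.903% and 0.778% of all genes), with list medians of -0.07 in SW480 and 0.03 in DLD-1. Under the study's limits 4 targets were lower and 1 higher in SW480, against 4.98% and 4.1% of all genes. CCND1, which encodes cyclin D1, was at 888 and 924 CPM in SW480 shControl and at 718 and 729 CPM in shNAT10 (log2 fold change -0.32, SE 0.07, edgeR adjusted p = 0.0305). SAA2, an acute-phase serum amyloid gene, was at 24.9 and 21.4 CPM against 16.2 and 14.9 CPM (log2 fold change -0.57, SE 0.12, edgeR adjusted p = 0.0352). In both genes the knockdown libraries lay below the controls. SAA2 is nearly identical to SAA1, so its reads may be divided between them, and both called genes are also under the control of factors other than STAT3. With either one of the SW480 shControl libraries left out, none of the 60 list genes was called lower in SW480, and without SW480 shNAT10 replicate 2, 14 were. Between control cells 11 targets were higher and 8 lower in SW480, where 38.1% of all genes were higher and 35.6% lower. SERPINA3, an acute-phase protease inhibitor, had 123 and 108 counts in SW480 and 1 and 2 in DLD-1. A2M, which encodes another protease inhibitor, had 14 and 14 against 1 and 1. The transcription factor genes JUNB (-1.89, SE 0.12) and BCL6 (-1.59, SE 0.13) were the lowest in SW480 on the log2 scale.

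The 5 genes most like IL6ST, by Pearson's r of log2 CPM over the 8 libraries, were DICER1 (0.993), SCAF8 (0.984), REV3L (0.978), MAPK9 (0.976) and FNIP2 (0.973). No member of the pathway was among them, and the r with IL6ST was 0.38 for JAK1, 0.27 for IL6R, 0.05 for JAK2 and -0.24 for STAT3. These r values rest on 8 libraries in 4 groups and are a description. The log2 fold changes of DICER1 were -0.47 for SW480, -0.03 for DLD-1 and 0.32 between control cells, close to the IL6ST values of -0.47, -0.07 and 0.30. Its transcript has 10331 bases and that of REV3L 10943, at 39.2% and 40.1% GC. SCAF8 (4944 bases), MAPK9 (4369) and FNIP2 (6925) were shorter, with log2 fold changes of -0.20, -0.13 and -0.37 in SW480.

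A STAT-type palindrome, TTCNNNGAA, which reads the same on both strands, was searched in RefSeq promoter windows (GRCh38.p14) of 300 bases, 250 before and 50 after the start site. None of the 15 windows of the 9 analysed members held it, against 7.66% of the 35116 windows of all genes. At this share 15 windows are too few to read their lack of a match. The SOCS3 and PIAS3 windows did not contain the gene start in GENCODE (chr17:78360077 and chr1:145859836, - strand), so those starts were not searched. LIFR, listed but not analysed, was left out of the count. Of its windows, 1 held TTCCTTGAA, 1 held TTCATCGAA and another held no match.

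The IL6ST change kept its sign in SW480 under all 19 settings that gave a value beside the reported one, between -0.61 and -0.27. In DLD-1 it lay between -0.16 and 0.03, and it was above 0 only without DLD-1 shControl replicate 2. All settings used the libraries by which IL6ST was chosen, so the kept sign in SW480 is a description and no support.

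**Figure D5:**
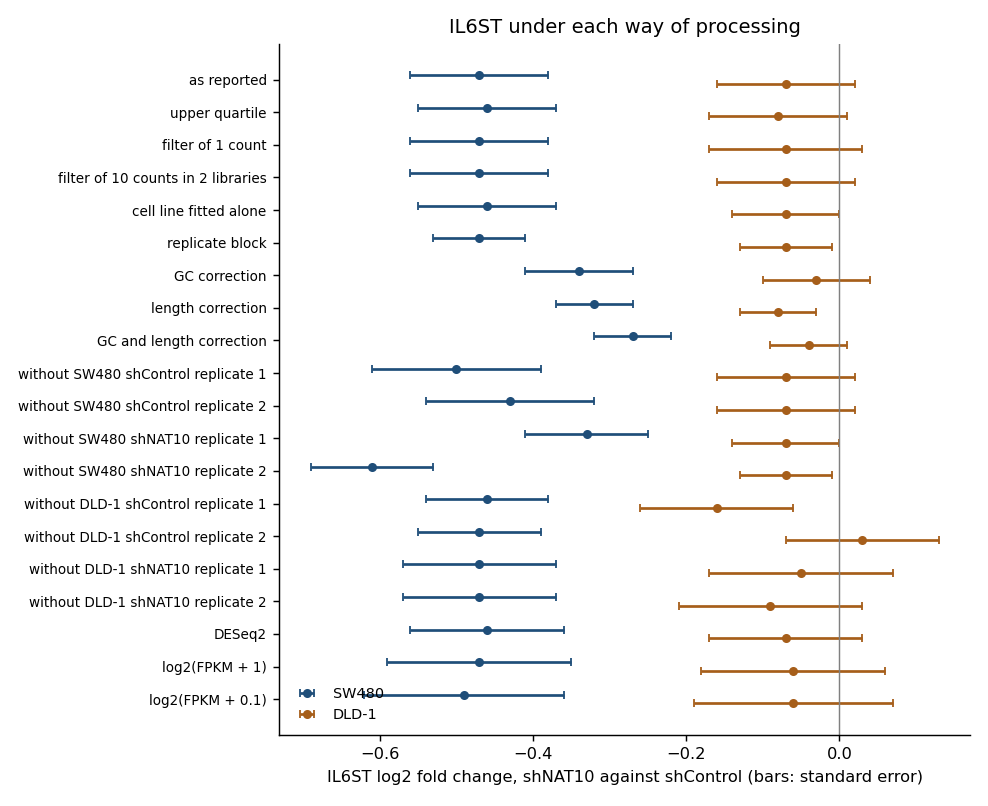
IL6ST log2 fold change with shNAT10 (horizontal axis, bars are standard errors) under each way of processing, in SW480 and DLD-1. The SW480 points lie between -0.61 and -0.27 and the DLD-1 points between -0.16 and 0.03, and the SW480 points move most with the length and GC corrections and when either SW480 shNAT10 library is left out.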

How the data were processed

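Poly(A) RNA of 8 libraries, 2 per group, was sequenced by BGI as single-end 50-base reads. The authors deposited estimated counts per RefSeq transcript and FPKM per library. Their processing notes name HISAT2 2.0.4, Bowtie2 2.2.5, RSEM 1.2.12 and hg38. The deposited FPKM of SW480 shNAT10 replicate 2 left 14655 of 78953 transcripts without a value. The fits on FPKM summed only transcripts with a value in every library.

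Estimated counts were summed per gene, rounded, filtered with filterByExpr (minimum count 10, total 15), normalized by TMM and fitted as 4 groups with edgeR 4.0.16 in R 4.3.3. Gene names came from RefSeq and transcript lengths and GC content from GENCODE release 29, for 98.8% of tested genes. The p-values measure the spread between libraries. The fit was tested on simulated data. IL6ST was left out of the tests and counts between control cells too, a change from the plan, since its control values entered its choice. Intervals and limits cover counting error only.

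The members and lists were chosen with earlier results of these data known. Named were the members, NAT10, per list and contrast up to 4 genes with the largest change among those with an adjusted p (or up to 2 past the study's limits where fewer than 2 had one), and the 5 genes most like IL6ST; 2 genes that this rule names are not reported here. No protein motif was searched. Alternatives used DESeq2 1.42.0, limma 3.58.1 on log2(FPKM + 1) and log2(FPKM + 0.1), other filters and scaling, a replicate block, and loess corrections. The correction for GC content and length together was added after seeing the data.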

Additional observations from a re-analysis of the deposited data

Results flagged for a closer look

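Among the members, NAT10 and the list genes reported for a change with shNAT10, 4 were flagged. Their change with shNAT10 differed between the cell lines or ran in opposite directions in every library. Other list genes were not counted here, and some of them, BCL6, IRF1 and ICAM1 included, ran in opposite directions in every library too. For NAT10 the difference itself passed the test, at -1.16 on the log2 scale. For JAK2 both SW480 knockdown libraries lay below and both DLD-1 knockdown libraries above their controls, with a difference of -0.61 (SE 0.17, edgeR adjusted p = 0.472). JAK1 showed the same arrangement with a difference of -0.18 (SE 0.10, edgeR adjusted p = 0.569). STAT2 did so too, with a difference of -0.36 (SE 0.10, edgeR adjusted p = 0.453). The last 3 differences did not pass the adjusted threshold. Of all genes tested, 3.14% had knockdown libraries below both controls in SW480 and above both in DLD-1.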

How the results depend on the processing

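Each group had 2 libraries, and 1 library set much of what was called. Leaving out each library in turn gave 0 to 2 members lower in SW480 (JAK1 and JAK2 were called without SW480 shNAT10 replicate 2), 0 to 1 member whose change differed between the cell lines (JAK2), 0 to 14 list genes lower in SW480 and 0 to 5 higher. Over all genes, 1131 were lower and 1031 higher in SW480 without SW480 shNAT10 replicate 2, and 29 and 39 without replicate 1, against 123 and 106 with all libraries. The IL6ST log2 fold change ranged from -0.61 to -0.33 in SW480, from -0.16 to 0.03 in DLD-1, and from -0.54 to -0.26 for the difference when a library was left out. The correction for GC content and length together gave -0.27 in SW480 and -0.23 for the difference, and the length correction alone gave -0.24 for the difference. Under the limits of the study, 1 member was lower in SW480 and 1 higher in DLD-1. On log2(FPKM + 1), limma gave NAT10 in DLD-1 a log2 fold change of -1.04 with an adjusted p of 0.0829. With the replicate block, 12 list genes were lower and 4 higher in SW480, and 822 of all genes were lower and 650 higher. The deviations of libraries with the same number correlated at 0.128 in SW480 and 0.036 in DLD-1, which with 2 pairs does not show that the numbers pair the samples. The cause of these shifts was not tested. No value that passed the threshold changed sign. Of 638 values of single genes under other settings, 23 had the other sign, none of them called. Among them was IL6R in DLD-1, at -0.04 and -0.06 on the FPKM scales, where the fits left out an IL6R transcript. SOCS3 in DLD-1 (-0.26) and in the difference (0.30) had the other sign without DLD-1 shControl replicate 2. IL6ST between control cells ranged from 0.21 to 0.40 when a library was left out, and JAK2 there missed the threshold on both FPKM scales.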
